A study of Arabidopsis thaliana with 16 samples.

Results

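The epidermis is the outermost and the stele the innermost of the radial layers of the Arabidopsis thaliana root, and the 2 are compared here under iron deficiency with 4 arrays of epidermis and 3 of stele, 7 of the 16 arrays of the study. Arrays were taken by their titles, and no measured value entered the choice. The epidermis arrays hold RNA of protoplasts sorted for WER::GFP, a reporter that also marks the lateral root cap, so the population is epidermis together with lateral root cap. The stele arrays hold RNA of protoplasts sorted for WOL::GFP, which marks the central cylinder. Both reporter lines were in the Columbia ecotype. Seedlings were harvested at 6 days after germination, and those of all 5 populations (columella, epidermis, cortex, endodermis with quiescent center, stele) had spent 24 hours on medium without ferrous sulfate and with 0.3 mM Ferrozine, an iron chelator. No array of roots with iron enters, so every difference below is one between cell populations of iron-deficient roots and not a response to iron deficiency. Protoplasting, sorting and 2-cycle amplification came before all arrays. Nothing in the labels tells whether replicates were grown apart, and the p-values therefore reflect differences between arrays that may be technical only.

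The epidermis meets the soil, carries the root hairs and takes up water and ions, and the lateral root cap covers it near the tip and sheds cells. The stele holds xylem, phloem, procambium and the pericycle, from which lateral roots arise, and loads iron and other ions into the xylem for the shoot. Between them lie the cortex and the endodermis, whose lignified Casparian strip seals the path between cells. In the iron deficiency response of Arabidopsis, reduction and uptake of iron take place in the outer layers, while small peptides of the IMA family and several basic helix-loop-helix (bHLH) factors act as signals and regulators.

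Among the epidermis arrays, replicate 4 stood apart. Its Pearson correlation with replicates 1 to 3, across the 16221 probe sets tested and on the log2 scale, was 0.894 to 0.938, against 0.970 to 0.981 among those 3. With the stele arrays it correlated at 0.807 to 0.828, while replicates 1 to 3 gave 0.727 to 0.785, and the stele arrays correlated at 0.945 to 0.971 with each other. Of the 3110 probe sets lower in epidermis, replicate 4 was the highest epidermis array in 60.6%, against 35.7% of all probe sets tested. The signal for 25S ribosomal RNA was 1088 on replicate 4 and 5363 to 8289 on replicates 1 to 3, and 586.1 to 2629 on the stele arrays. The log2 ratio of 3' to 5' probe sets of actin, GAPDH and ubiquitin was 2.84 to 3.02 in epidermis and 3.13 to 3.33 in stele, and its part in the differences was not tested.

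Of 31 listed stele genes 5 were tested, and 4 of these were higher in stele than in epidermis. Over all genes tested, 18.1% were higher in stele and 14.0% higher in epidermis. The label of the epidermis was borne out by few of its markers. ATMYC1 (AT4G00480), a bHLH factor of epidermal cell patterning, gave signals of 726, 959, 731 and 457 on the epidermis arrays and 39.2, 39.3 and 18.97 on the stele arrays, a difference of 4.09 ± 0.51 (log2 ± SE, adjusted p = 4.6e-06). All 4 epidermis arrays lay far above all 3 stele arrays. RCPG (AT1G65570), a root cap polygalacturonase gene, gave 1802, 817, 1691 and 3737 in epidermis and 21.6, 96.7 and 72.3 in stele, and its mean in columella was 7529 ± 532 (SD, n = 3). It was 4.75 ± 0.59 higher in epidermis on the log2 scale (adjusted p = 4.9e-06), and replicate 4 was the highest epidermis array. The root hair expansin genes EXPA7 and EXPA18 were not called: EXPA18 gave 557, 319, 292 and 193 against 249.5, 513 and 182, and EXPA7 gave 512, 352, 235 and 241 against 242, 115.1 and 189.8 (adjusted p = 0.83 and 0.36), and the arrays of the populations overlapped. TRY, a patterning gene of hair cell fate, gave 63.2, 91.3, 50.03 and 35.2 against 23.5, 39.9 and 20.2 (adjusted p = 0.099, and 0.044 without epidermis replicate 4). SCN1, which confines root hair initiation, was lower in epidermis (difference -0.79 ± 0.25, adjusted p = 0.02), and lost that call without epidermis replicate 3 or without stele replicate 2 or 3 (adjusted p = 0.059, 0.074 and 0.067). PASPA3, which encodes an aspartic protease linked to developmental cell death, gave 1244, 725, 1004 and 3401 in epidermis and 1434, 1874 and 2069 in stele (adjusted p = 0.4). Without epidermis replicate 4, which at 3401 exceeded every stele array, it was lower in epidermis (difference -0.87, adjusted p = 0.0056). Thus 1 of 5 epidermis genes and 1 of 2 lateral root cap genes were higher in epidermis, against 14.0% of all genes tested. The reporter genes themselves, WER and the WOL gene AHK4, were not analysed here.

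In the stele, PHV, a class III HD-ZIP factor of vascular patterning, gave 380, 238 and 438 against 32.5, 36.6, 57.7 and 47.3 in epidermis, a difference of -2.73 ± 0.25 (adjusted p = 1.5e-07). LHW, a bHLH factor of vascular cell number, gave 514, 509 and 535 against 222, 247, 193 and 156 (-1.32 ± 0.27, adjusted p = 0.00078). LBD16 and LBD29, factors of lateral root initiation, were also lower in epidermis and are given below. Their endodermis means were close to those of the stele, so they do not set the stele apart from the endodermis. CLE41, a peptide gene of vascular stem cells, was not called (difference 0.60 ± 0.26, adjusted p = 0.081), and without epidermis replicate 2 it was higher in epidermis (difference 0.81, adjusted p = 0.016). The 1 tested gene of xylem and secondary wall (GUT2) and the 1 of phloem (SWEET11) were lower in epidermis, and GUT2 had its highest mean in columella.

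Endodermis genes gave signal in stele. SGN1, a kinase gene of Casparian strip formation, gave 1087, 464 and 384 in stele, 18.5, 18.2, 0.962 and 17.1 in epidermis and a mean of 6265 ± 1378 (SD, n = 3) in endodermis. GSO1, the receptor of the same pathway that is also called SGN3, gave 839.6, 669 and 427 in stele, 49.8, 48.8, 43.8 and 111 in epidermis and 5445 ± 864 in endodermis. Both were lower in epidermis than in stele (differences -4.72 ± 0.37 and -3.19 ± 0.30, adjusted p = 2.6e-08 and 1.7e-07), while their stele means lay far below those of the endodermis. The part of endodermis cells in the stele RNA was not tested. None of the 4 cortex genes tested was called: JKD, CYP71B34, AT1G09750 and UGT84A1 had means of 4.56, 26.2, 32.8 and 13.4 in epidermis and 19.4, 41.5, 22.7 and 2.68 in stele, against 187, 672, 836 and 204 in cortex (adjusted p = 0.22, 0.15, 0.5 and 0.21). CYP71B34 was called lower in epidermis without epidermis replicate 4 (difference -0.71, adjusted p = 0.043), and JKD without stele replicate 2 (-1.31, adjusted p = 0.031). In RNA of sorted pools, fewer cells of a type and less RNA per cell cannot be told apart.

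Of the 16221 probe sets tested, 2292 (14.1%) were higher and 3110 (19.2%) lower in epidermis than in stele, 33.3% in all (limma on log2(signal + 10.21), Benjamini-Hochberg adjusted p under 0.05). Without epidermis replicate 4 the counts were 3340 and 3584. The differences in favour of the stele were larger: 230 probe sets were lower in epidermis by more than 4 on the log2 scale and 54 were higher by as much. The median difference was -1.52 over all 3110 lower and 1.18 over all 2292 higher probe sets. The excess on the stele side among large differences held under quantile normalization (191 and 57) and with no pseudocount (507 and 102). The 7 arrays did not overlap between populations in 1833 of the 2292 higher and 2825 of the 3110 lower probe sets. Of all probe sets tested, called or not, 35.7% did not overlap, 14.4% with epidermis above and 21.3% with epidermis below stele. Among the 10 pairs of populations, which share arrays, 33.3% was the second lowest share called after the 30.0% of endodermis against stele. Cortex against stele was close at 33.8%, and epidermis against endodermis gave the highest, 52.7%. The fits of these pairs include epidermis replicate 4, without which more probe sets were called between epidermis and stele. The pairs were not ranked without that array. Over the 8901 genes tested, 14.0% were higher and 18.1% lower in epidermis, with a median difference of 0.02. Over the 1201 tested genes that carry a symbol, the shares were 13.7% and 21.7% and the median -0.09. The families below, most of them chosen by symbol, are compared with these genes. The class III peroxidases include genes without a symbol.

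**Figure D1:**
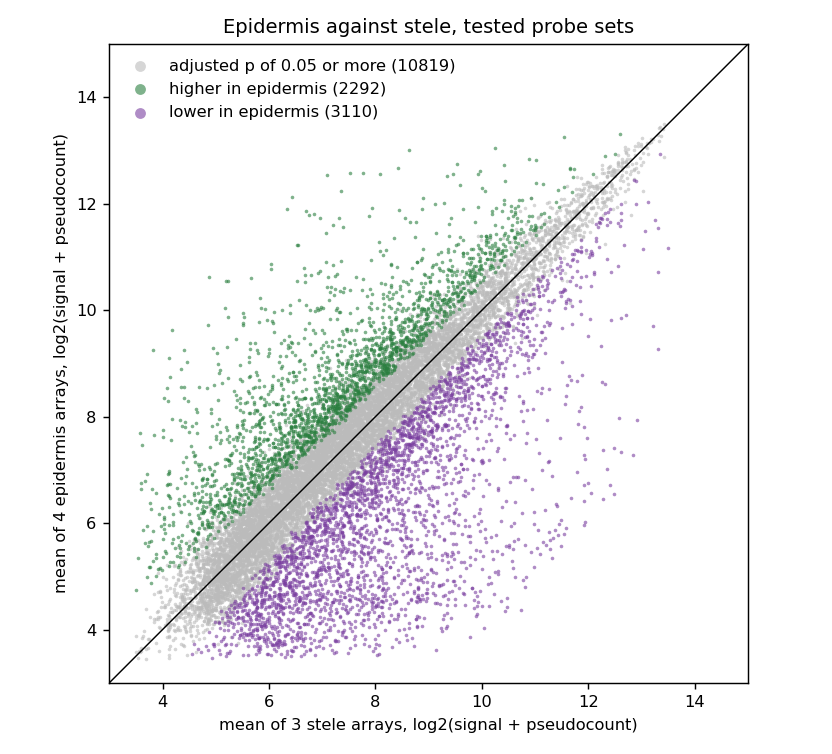
Mean of log2(signal + pseudocount) over 4 epidermis arrays (vertical axis) against that over 3 stele arrays (horizontal axis), 1 point for each of 16221 probe sets; the line marks equality. The 3110 purple points, lower in epidermis, reach farther from the line than the 2292 green points, higher in epidermis.

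The largest differences are given for called probe sets whose gene carries a symbol in the annotation, 166 of the 2292 higher and 261 of the 3110 lower ones, and among these for genes whose arrays did not overlap. In favour of the epidermis the first were sks16 (AT2G23630) and sks15 (AT4G37160), of the multicopper oxidase-like family named after SKU5, a wall protein of directional root growth. Sks16 gave 3838, 2043, 3905 and 4936 in epidermis and 80.4, 156 and 71.5 in stele, and sks15 gave 4064, 2353, 3337 and 5085 and 97.4, 182 and 63.9. These are 32.8-fold and 31.03-fold on the scale with the pseudocount (differences 5.04 ± 0.37 and 4.96 ± 0.33, adjusted p = 1.5e-08 and 4.7e-09). Sks15 was as high in columella (3633 ± 69) as in epidermis, while sks16 was lower there (966 ± 222). Next came hemb2 (AT1G44318), which encodes an enzyme of the tetrapyrrole pathway that leads to heme, with 1655, 1430, 1675 and 2943 in epidermis and 45.8, 113 and 31.6 in stele (4.81 ± 0.40, adjusted p = 5.2e-08). PPDK, pyruvate orthophosphate dikinase, gave 491, 277, 438 and 299 against 1.01, 19.5 and 15 (4.21 ± 0.42). CuAO1, a copper amine oxidase that breaks down polyamines, gave 904, 1001, 1137 and 941 against 56.6, 87.2 and 38.2 (3.88 ± 0.35), and its cortex mean of 812 ± 199 was near that of the epidermis. GH3.17, which conjugates the auxin indole-3-acetic acid to glutamate, gave 2438, 1298, 1426 and 1483 against 120.1, 76.2 and 108 (3.88 ± 0.24). The cation/proton exchanger gene CHX20 gave 269, 149.5, 287 and 179.8 against 4.06, 19.4 and 12.9 (3.39 ± 0.36). The adjusted p of these last 4 genes was 3.7e-07, 1.3e-07, 3.1e-09 and 8.7e-07. In each of them the lowest epidermis array exceeded the highest stele array several-fold, replicate 4 included.

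In favour of the stele, SBT4.12 (AT5G59090), a subtilisin-like protease gene, gave 3258, 4707 and 3805 in stele and 68.5, 17.3, 44.9 and 119 in epidermis, 62.1-fold on the scale with the pseudocount (-5.96 ± 0.39, adjusted p = 4.7e-09). LCR68 (AT2G02130), of the defensin-like peptides, gave 4373, 6045 and 4551 against 87.4, 31.8, 32.7 and 319.7 (-5.82 ± 0.51). Epidermis replicate 4 was the highest epidermis array in both genes, as in the other 10 of the 12 genes plotted for the stele except ATC, and it remained well below every stele array. MGL, the methionine gamma-lyase that degrades methionine, gave 1002, 958 and 894 against 17.5, 2.98, 12.2 and 35.2 (-5.28 ± 0.42), and its endodermis mean was 184 ± 44.3. SAH7 gave 2682, 2700 and 2704 against 38.6, 41.8, 52.3 and 251 (-5.08 ± 0.52), and TET6, a tetraspanin membrane protein gene, 559.9, 581 and 531 against 11.4, 4.16, 11.9 and 27.7 (-4.65 ± 0.37). ATC, a relative of the flowering inhibitor TFL1, gave 231, 299 and 222 against 4.12, 2.39, 2.01 and 3.77 (-4.29 ± 0.31), with a higher mean in columella (626 ± 109) than in stele. The adjusted p of LCR68, MGL, SAH7, TET6 and ATC was 9e-08, 2.6e-08, 4.7e-07, 3.1e-08 and 9e-09.

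**Figure D2:**
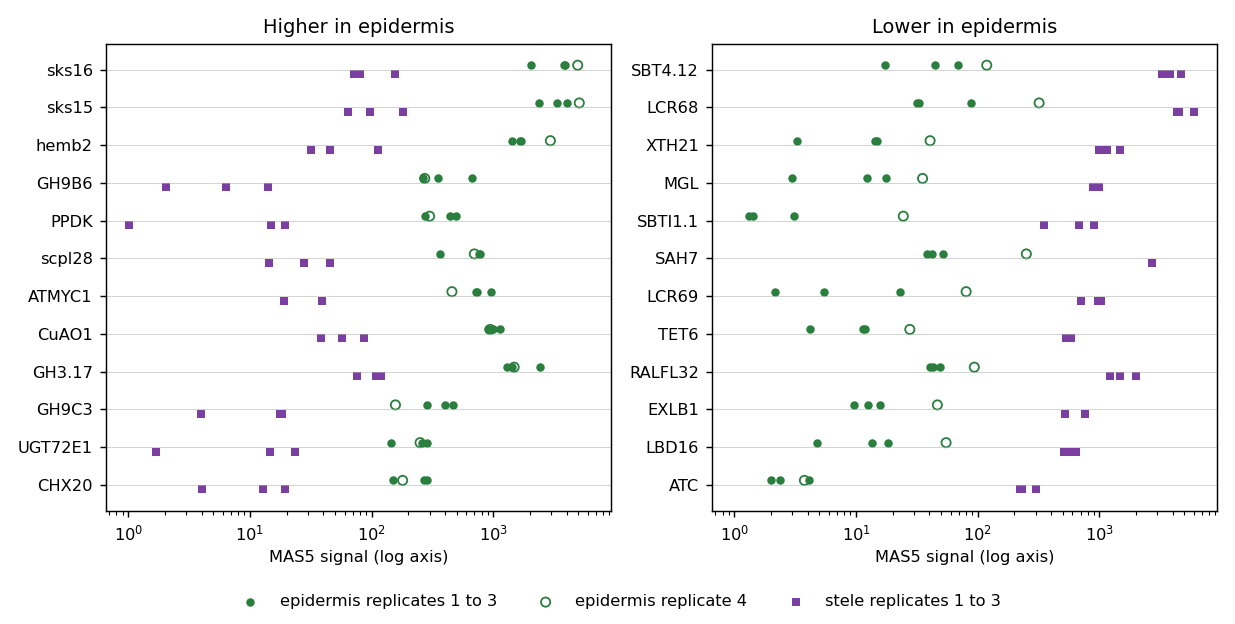
MAS5 signal (log axis) on each array for the 12 genes with the largest differences in each direction among called genes that carry a symbol in the annotation and whose arrays do not overlap; filled circles are epidermis replicates 1 to 3, open circles epidermis replicate 4 and squares the 3 stele arrays. Absence of overlap was a condition of the choice. In the right panel replicate 4 is the highest epidermis array in all but ATC.

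Of the 11 tested genes of glycoside hydrolase family 9 (GH9), endoglucanases that remodel the cell wall, 3 were higher in epidermis (27.3%). In this family 0 genes were lower and 8 not called, with a median difference of -0.19. Of all genes with a symbol, 13.7% were higher and 21.7% lower. GH9B6 gave 665, 266, 351 and 273 in epidermis and 2.05, 6.35 and 14.1 in stele, a difference of 4.45 ± 0.51 (adjusted p = 1.7e-06), and its columella mean of 3465 ± 551 was higher still. GH9C3 gave 287, 398, 465 and 157 against 18.4, 3.94 and 17.7 (3.80 ± 0.48, adjusted p = 5.4e-06), with replicate 4 the lowest epidermis array and a columella mean of only 19.9 ± 19.5. GH9C2 was 1.86 ± 0.32 higher (adjusted p = 0.00016). GH9B13 was the lowest of the family at -0.89 ± 0.34 (adjusted p = 0.055); without epidermis replicate 4 it was lower in epidermis (-1.19, adjusted p = 0.0047). Of 8 xyloglucan endotransglucosylase/hydrolase genes (XTH), which cut and rejoin xyloglucan, 5 were lower in epidermis (62.5%) and 1 higher (12.5%). XTH21 gave 1149, 991 and 1465 in stele and 14.8, 14.4, 3.29 and 40.6 in epidermis (-5.55 ± 0.55, adjusted p = 3.2e-07). XTH16 and XTH20 had stele means of 315 ± 35.6 and 164 ± 93.6 and epidermis means of 14.1 ± 10.7 and 12.8 ± 5.5 (SD, n = 3 and 4; differences -3.84 ± 0.55 and -2.83 ± 0.36). XTH19 went the other way, with 1749, 1776, 1678 and 2523 in epidermis and 589, 998 and 358 in stele (1.66 ± 0.45, adjusted p = 0.0075); without stele replicate 3 the adjusted p was 0.055.

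Of 14 expansin genes, whose proteins loosen walls, 2 were higher (14.3%) and 3 lower (21.4%) in epidermis, near the shares of all genes with a symbol. EXPA9 gave 952, 699, 1019 and 1529 against 87.5, 168 and 64.2 in stele (3.22 ± 0.33, adjusted p = 4.9e-07) and EXPA4 was 1.60 ± 0.25 higher (adjusted p = 5.3e-05); both were higher still in columella (1587 ± 534 and 1134 ± 287). EXLB1, of the expansin-like B group, gave 519, 765 and 523 in stele and 15.9, 12.5, 9.55 and 46.6 in epidermis (-4.40 ± 0.40, adjusted p = 1.2e-07). EXPA15 gave 1059, 896 and 979 against 97.1, 112, 93.7 and 152 (-3.02 ± 0.23, adjusted p = 2.1e-08). Its stele mean was above that of each other population, the next being columella at 575 ± 160.

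Of 19 tested trichome birefringence-like genes (TBL), whose family acetylates wall polysaccharides, 11 were lower (57.9%) and 4 higher (21.1%) in epidermis. Of all genes with a symbol, 21.7% were lower and 13.7% higher. The median difference was -0.96 for the TBL genes and -0.09 over all genes with a symbol. TBL36 gave 1208, 1711 and 1880 in stele and 44.2, 69.8, 65.5 and 139 in epidermis (-4.24 ± 0.45, adjusted p = 8.1e-07). TBL34, which acetylates xylan, gave 312, 600.1 and 914 against 35.5, 4.41, 22.2 and 48.9 (-4.07 ± 0.40, adjusted p = 3.2e-07). Both were lower in cortex and endodermis than in stele, with endodermis means of 212 ± 109.8 and 68.6 ± 14.7. TBL19 and TBL30 were higher in endodermis (522 ± 69.8 and 2595 ± 286) than in stele (300.2 ± 63 and 350 ± 121.4), and lower in epidermis than in stele (differences -4.09 ± 0.33 and -3.40 ± 0.30). TBL39 was the highest of the family in epidermis, with 3085, 3113, 3059 and 3694 against 995, 811 and 964 (1.80 ± 0.18, adjusted p = 2.8e-07). Of 4 irregular xylem genes, which build xylan, 3 were lower in epidermis. IRX15 gave 79.5, 45.7 and 252 in stele and 1.93, 3.82, 0.928 and 2.24 in epidermis (-3.15 ± 0.45), IRX15-L gave 172, 112 and 457 against 40.9, 24.7, 30.8 and 59.7 (-2.20 ± 0.36), and GUT2, also called IRX10, gave 216, 164 and 357 against 95.01, 82.4, 73.2 and 91.2 (-1.35 ± 0.28). Their adjusted p was 2.4e-05, 9.6e-05 and 0.00095, and stele replicate 3 was the highest stele array in all 3. None of the 3 had its highest mean in stele: IRX15 and GUT2 were highest in columella (218 ± 25.6 and 489.5 ± 193) and IRX15-L in endodermis (857 ± 130.4). All 3 pectin methylesterase genes tested were lower in epidermis, but only PMEPCRF (-1.98 ± 0.33, adjusted p = 0.00013) kept that call under quantile normalization or without epidermis replicate 1, 2 or 3 or stele replicate 1.

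**Figure D3:**
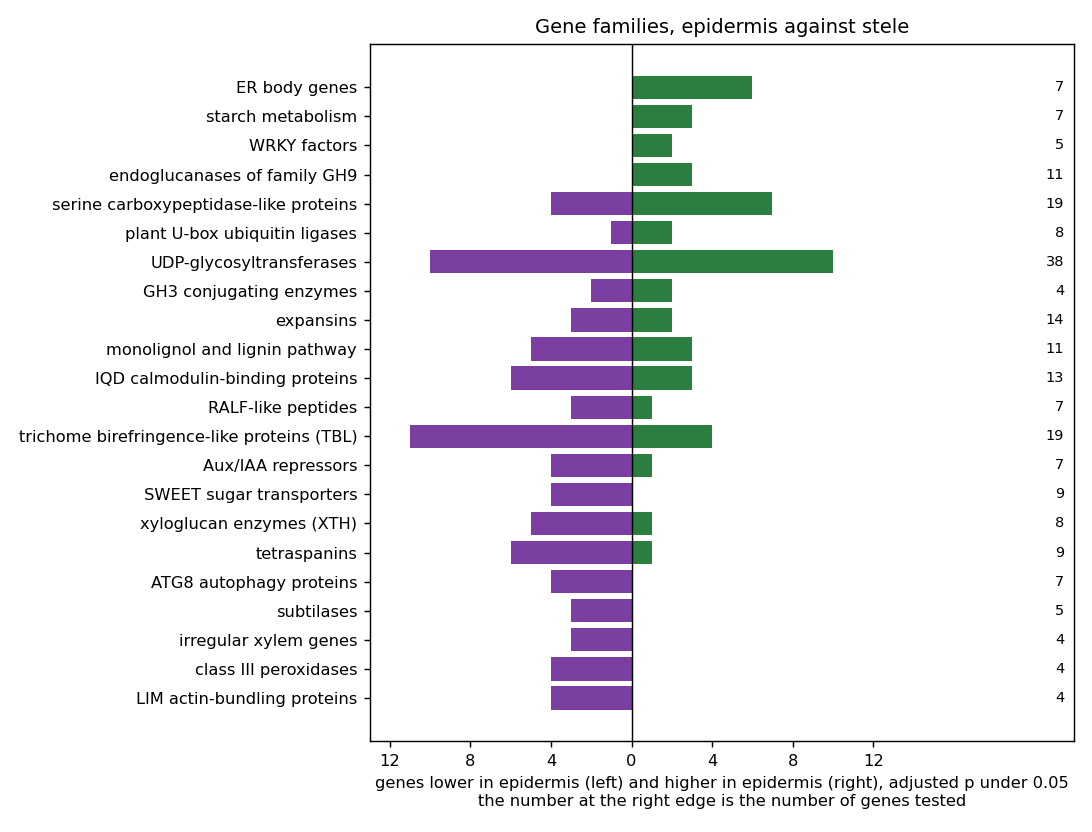
Number of genes of each family that were lower (left of 0) or higher (right of 0) in epidermis than in stele, for families with at least 4 tested genes in the nucleus; the number tested stands at the right edge. The bars run from endoplasmic reticulum body genes, 6 of 7 higher, to peroxidases and LIM proteins, 4 of 4 lower.

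HCT and CCR2, of lignin precursor synthesis, were lower in epidermis, while 2 of the 3 glucosyltransferases that store these precursors were higher. In the monolignol and lignin group 5 of 11 tested genes were lower (45.5%) and 3 higher (27.3%), against 21.7% and 13.7% of all genes with a symbol. HCT, which makes the shikimate esters on the way to coniferyl alcohol, gave 3677, 3755 and 3459 in stele and 262, 244, 222 and 352 in epidermis (-3.72 ± 0.26, adjusted p = 7.5e-09). CCR2, a cinnamoyl-CoA reductase, gave 163, 143 and 116 against 2.27, 0.745, 0.773 and 2.6 (-3.67 ± 0.32, adjusted p = 9.1e-08), and its endodermis mean was 1763 ± 258. BGLU46, a monolignol glucosidase, was lower (-2.07 ± 0.34, adjusted p = 0.0001). Of the UGT72E enzymes, which glucosylate monolignols and their aldehydes, UGT72E1 gave 286, 144, 259 and 250 in epidermis and 14.5, 1.68 and 23.4 in stele (3.47 ± 0.33, adjusted p = 2.1e-07). UGT72E2 gave 2086, 2074, 2343 and 2535 against 949, 250.5 and 418 (2.25 ± 0.32, adjusted p = 1.9e-05). UGT72E3 went the other way, with 22.4, 19.8, 23.4 and 38.02 against 287, 56.6 and 125 (-1.97 ± 0.38, adjusted p = 0.00057), and was highest in endodermis (1659 ± 109.6). ALDH2C4, which makes ferulic and sinapic acid, gave 1369, 1056, 1323 and 1490 in epidermis and 337, 577 and 292 in stele (1.73 ± 0.24, adjusted p = 1.5e-05).

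All 4 class III peroxidase genes tested were lower in epidermis, against 18.1% of all genes tested. Of these peroxidase genes, 2 still passed with no pseudocount or without epidermis replicate 2. AT5G66390, listed as PRX72 among its RefSeq synonyms, gave 2508, 2649 and 1421 in stele and 84.5, 29.8, 38.2 and 53.1 in epidermis (-5.18 ± 0.32, adjusted p = 3.1e-09). Its endodermis mean of 11830 ± 1602 was above that of the stele. Prx37 gave 336, 412 and 269 against 23.4, 14.6, 20.8 and 13.4 (-3.62 ± 0.41, adjusted p = 1.5e-06), again with a higher endodermis mean (1404 ± 79.3). HCT, CCR2, UGT72E3, AT5G66390 and Prx37 thus had their highest means in endodermis and not in stele, as SGN1 and GSO1 did.

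Genes of endoplasmic reticulum bodies, the compartments of Brassicaceae that hold beta-glucosidases for defense, were higher in epidermis. Of the 7 tested, 6 were higher (85.7%, against 13.7% of all genes with a symbol) and 0 lower. NAI1, the bHLH factor that drives their formation, gave 506, 311, 439.7 and 457 in epidermis and 150, 116 and 134 in stele (1.60 ± 0.37, adjusted p = 0.0023). NAI2, a structural protein of the bodies, gave 6306, 5328, 5007 and 4491 against 702, 949.5 and 651 (2.78 ± 0.29, adjusted p = 6.1e-07). JAL33, a jacalin-related lectin gene, gave 3215, 2370, 3516 and 4074 against 328, 516 and 440.2 (2.91 ± 0.28), and its relative JAL34 gave 8524, 11300, 8992 and 10400 against 2232, 3864 and 3052 (1.71 ± 0.21). BGLU25, a beta-glucosidase, gave 2166, 3155, 2805 and 2364 against 228, 477 and 291 (3.00 ± 0.25). PYK10, the main beta-glucosidase of root bodies, differed least, with 7436, 6735, 6767 and 9766 against 5353, 5490 and 4476 (0.58 ± 0.17, adjusted p = 0.012, and 0.065 without stele replicate 3). JAL22 gave 23.4, 18.6, 34.8 and 49.1 against 44.8, 24.4 and 72.1 and was not called (adjusted p = 0.37). For the 6 genes higher in epidermis, the lowest of the 4 outer-to-inner means was that of the endodermis and not of the stele, from 42.6 for NAI1 to 1332 for PYK10.

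Enzymes that modify small molecules were divided. UDP-glycosyltransferases, which attach sugars to hormones, phenolics and other compounds, had 10 of 38 genes higher and 10 lower in epidermis. These were 26.3% each, against 13.7% higher and 21.7% lower of all genes with a symbol. UGT73B4 gave 1265, 1333, 1205 and 1321 in epidermis and 206, 218 and 85.2 in stele (2.94 ± 0.40, adjusted p = 1.3e-05), and UGT85A2 gave 1614, 1212, 1192 and 1338 against 389, 118 and 179 (2.65 ± 0.29). UF3GT, an anthocyanin xylosyltransferase gene, was 2.46 ± 0.27 higher, with a mean of 185 ± 56.9 in epidermis and the next highest mean, in endodermis, at 37.2 ± 4.68. On the other side, UGT71C5, which glucosylates abscisic acid, gave 242, 158 and 225 in stele and 22.1, 24.3, 37.5 and 31.5 in epidermis (-2.48 ± 0.30, adjusted p = 3.9e-06), and GT72B1 was lower in epidermis as well (-2.28 ± 0.38). Serine carboxypeptidase-like genes had 7 of 19 higher (36.8%) and 4 lower (21.1%). The extremes were scpl28, with 778, 364, 762 and 698 in epidermis against 45.2, 27.7 and 14.3 (4.09 ± 0.40, adjusted p = 2.7e-07), and SCPL45, with 1957, 2000 and 2523 in stele against 126, 165, 134 and 177 (-3.76 ± 0.17, adjusted p = 3.8e-10). Scpl18 and scpl25 were 2.76 ± 0.41 and 2.87 ± 0.35 higher in epidermis, and scpl35 was lower (-3.31 ± 0.38). In SCPL45 the 4 epidermis arrays and the 3 stele arrays each lay close together, and its SE was the smallest of the serine carboxypeptidase-like genes.

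Subtilases, vacuolar processing enzymes and secreted peptides had more genes lower than higher in epidermis. The same held for all genes with a symbol (21.7% lower and 13.7% higher). Of 5 subtilase genes 3 were lower in epidermis (60%) and 0 higher. Beside SBT4.12, SBTI1.1, which cleaves a phytosulfokine precursor, gave 683, 349 and 903 in stele and 3.09, 1.33, 1.43 and 24.5 in epidermis (-5.27 ± 0.43, adjusted p = 4.1e-08), and ATSBT5.2 gave 342, 380.2 and 485 against 13.7, 4.58, 4.57 and 51.9 (-4.10 ± 0.49). SBT5.4 had the highest difference of the family, 0.25 ± 0.38, and was not called (adjusted p = 0.65). All 3 defensin-like peptide genes tested were lower in epidermis: beside LCR68, LCR69 gave 701, 972 and 1039 against 23.1, 5.49, 2.16 and 80.4 (-5.03 ± 0.53), and PDF2.5 gave 331, 587 and 306 against 34.7, 28.97, 17.01 and 18.8 (-3.55 ± 0.39). Rapid alkalinization factor (RALF)-like peptide genes had 3 of 7 lower (42.9%) and 1 higher (14.3%). RALFL32 gave 1232, 2012 and 1464 in stele and 49.4, 42.8, 40.5 and 93.8 in epidermis (-4.60 ± 0.33, adjusted p = 9e-09). RALFL34, a peptide of lateral root initiation, gave 918, 812, 1340 and 1382 in epidermis and 416, 597 and 559.7 in stele (1.05 ± 0.30, adjusted p = 0.012, and 0.062 without stele replicate 1). All 3 vacuolar processing enzyme genes, cysteine proteases of protein maturation and cell death, were lower in epidermis: the differences of BETA-VPE, ALPHA-VPE and GAMMA-VPE were -2.19 ± 0.22, -1.45 ± 0.40 and -1.19 ± 0.25 (adjusted p = 4.6e-07, 0.0094 and 0.001).

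Most of the auxin response genes tested and the lateral root factors were lower in epidermis. Of 7 tested genes of the Aux/IAA family of repressors, 4 were lower (57.1%) and 1 higher (14.3%) in epidermis. Of all genes with a symbol, 21.7% were lower and 13.7% higher. IAA29 gave 281, 419 and 214 in stele and 5.74, 5.38, 12.5 and 25.98 in epidermis (-3.84 ± 0.34, adjusted p = 9e-08), and IAA18 gave 448, 553 and 382 against 18.1, 12.9, 21.8 and 60.3 (-3.74 ± 0.30, adjusted p = 3.7e-08). IAA31 and IAA30 were lower too (differences -2.72 ± 0.39 and -1.58 ± 0.31), and IAA20 was not called (difference -0.75 ± 0.40, adjusted p = 0.17). IAA33, which acts in the root tip, went the other way with 65.98, 43, 82.1 and 57 in epidermis and 23.4, 20.2 and 5.61 in stele (1.49 ± 0.36, adjusted p = 0.0038), and was far higher in columella (1105 ± 409). Of 4 GH3 genes, whose enzymes conjugate auxin to amino acids, 2 were lower and 2 higher in epidermis, or 1 higher under 11 of the 16 alternatives. GH3.3 gave 110.3, 295 and 188 in stele and 29.5, 16.8, 11.9 and 96.4 in epidermis (-2.28 ± 0.46, adjusted p = 0.00073), with replicate 4 at 96.4 near the lowest stele array. WES1, also called GH3.5, gave 399, 502 and 272 against 212, 65.9, 128 and 197 (-1.39 ± 0.37, adjusted p = 0.0077), whereas GH3.17 was higher in epidermis, as given above.

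All 3 tested factors of lateral root founding were lower in epidermis, against 21.7% of all genes with a symbol. LBD16, which auxin response factors switch on in founder cells, gave 577, 638 and 508 in stele and 13.6, 4.76, 18.3 and 55 in epidermis (-4.35 ± 0.35, adjusted p = 3.6e-08). LBD29 gave 61.3, 58.1 and 59.4 against 1.08, 4.95, 3.41 and 2.95 (-2.40 ± 0.48, adjusted p = 0.0007) and PUCHI, an AP2 factor of primordium shape, 118, 71.7 and 83.5 against 7.73, 12.3, 17.04 and 20.4 (-2.05 ± 0.29, adjusted p = 2.4e-05). In endodermis the means of these genes, 561 ± 107, 58.8 ± 49.2 and 101.3 ± 23.5, were close to those of the stele (574 ± 65.2, 59.6 ± 1.6 and 91.2 ± 24.3). The 1 cytokinin gene tested, the response regulator ARR15, gave 16.5, 12.8, 19.6 and 11.99 in epidermis and 39.9, 20.99 and 29.5 in stele and was not called (adjusted p = 0.12).

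**Figure D4:**
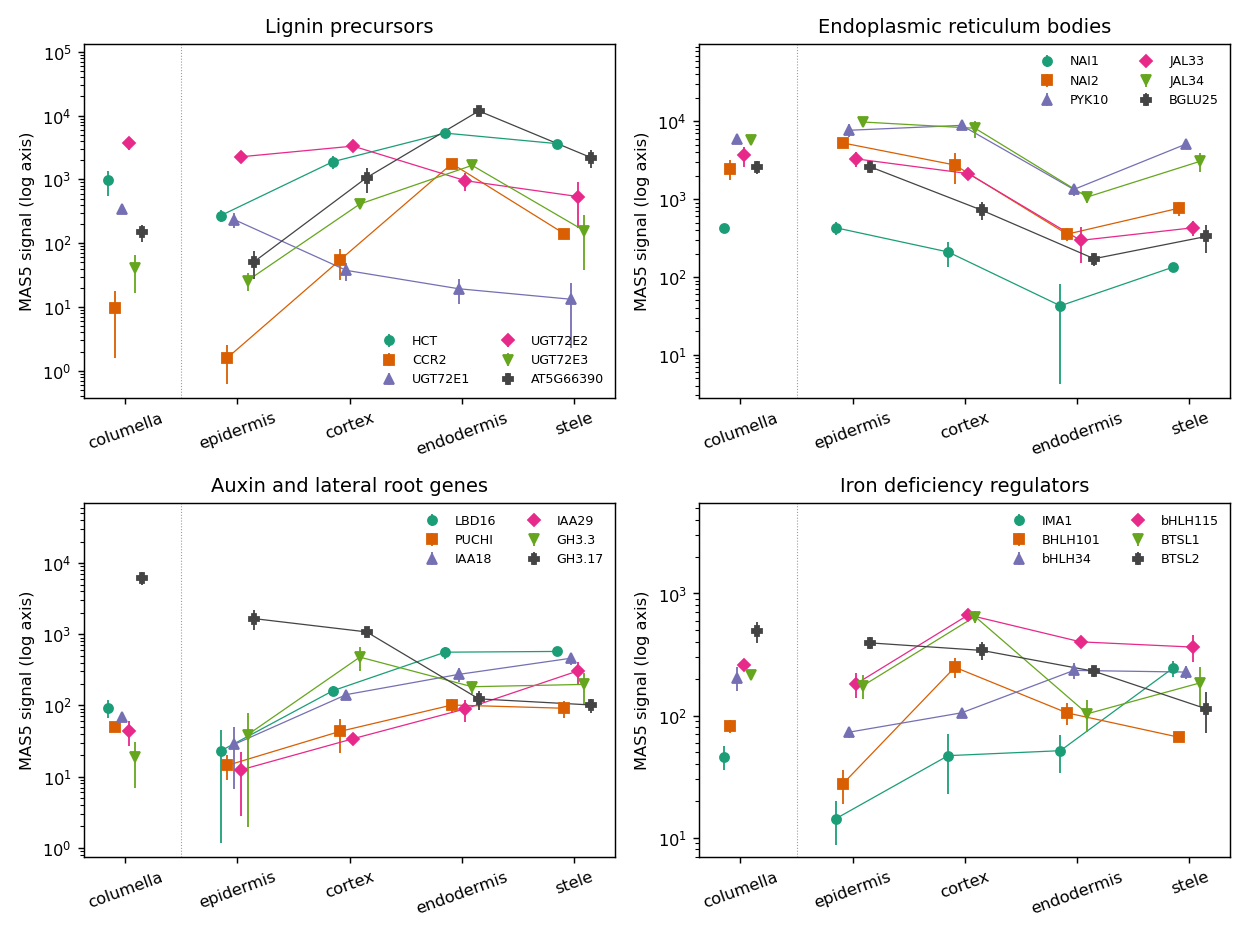
MAS5 signal (log axis) of 6 genes in each of 4 groups, as means with SD over 4 epidermis arrays and 3 arrays of each other population; lines join the layers from epidermis to stele, columella stands apart, and lower error bars that would reach 0 are shortened. HCT, CCR2, UGT72E3 and AT5G66390 are highest in endodermis and UGT72E1 and UGT72E2 in columella, endoplasmic reticulum body genes are lowest in endodermis, LBD16 and PUCHI are alike in endodermis and stele, and IMA1 is highest in stele.

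Of 9 SWEET sugar transporter genes 4 were lower in epidermis (44.4%), 0 higher and 5 not called. Of all genes with a symbol, 21.7% were lower and 13.7% higher. SWEET11, a sucrose exporter of phloem loading in leaves, gave 419, 684 and 404 in stele and 30.2, 32.7, 23.99 and 47.5 in epidermis (-3.53 ± 0.38, adjusted p = 7.9e-07), with an endodermis mean (533 ± 124) like that of the stele. SWEET3 gave 98.7, 201 and 154 against 6.73, 17.9, 10.98 and 33.04 (-2.60 ± 0.35, adjusted p = 1.1e-05). SWEET2 had the highest difference, 0.73 ± 0.35, and was called only under quantile normalization among the settings tried (0.89, adjusted p = 0.04). Of 7 genes grouped as starch metabolism, which here includes PPDK, 3 were higher in epidermis (42.9%), 0 lower and 4 not called. DPE1, the plastid enzyme that rearranges maltotriose, gave 351, 382, 298 and 261 in epidermis and 106, 66.2 and 75.4 in stele (1.85 ± 0.29, adjusted p = 5.7e-05). For PPDK and DPE1 the columella, the gravity-sensing tissue with starch grains, was highest (3129 ± 598 and 1045 ± 200.2). The lowest difference was that of PWD at AT4G24450 (-0.54 ± 0.26, adjusted p = 0.12).

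Families of membrane, cytoskeletal and autophagy proteins had more genes lower than higher in epidermis. So had all genes with a symbol, with 21.7% lower and 13.7% higher. Of 9 tetraspanin genes 6 were lower (66.7%) and 1 higher (11.1%). TET5 gave 144, 214 and 206 in stele and 2.45, 3.41, 10.7 and 17.7 in epidermis (-3.46 ± 0.42, adjusted p = 3.7e-06), and TET3 gave 1136, 1178, 1329 and 1135 in epidermis and 256, 435 and 259.9 in stele (1.92 ± 0.22, adjusted p = 1.7e-06). All 4 LIM genes, whose proteins bundle actin, were lower; WLIM1 gave 996, 919 and 944 against 229, 171, 125 and 232 (-2.31 ± 0.30, adjusted p = 9.6e-06). Of 13 IQD genes, for calmodulin-binding scaffold proteins, 6 were lower (46.2%) and 3 higher (23.1%). IQD24 gave 68, 56.2 and 83.3 in stele and 0.715, 1.64, 0.89 and 0.856 in epidermis (-2.81 ± 0.28, adjusted p = 3.4e-07), and IQD23 was lower (-2.41 ± 0.21). IQD19 was the highest, at 1.20 ± 0.42 (adjusted p = 0.036), and lost its call without epidermis replicate 1 or 4 or stele replicate 1 or 3 (adjusted p = 0.09, 0.069, 0.06 and 0.16). Of 7 ATG8 genes, whose proteins build autophagosomes, 4 were lower (57.1%) and 0 higher. ATG8C gave 408, 482 and 417 against 159.8, 149, 145 and 195 (-1.38 ± 0.21, adjusted p = 4e-05). ATG8E gave 232, 586 and 319 against 67.5, 61.04, 48.6 and 295 (-1.86 ± 0.43, adjusted p = 0.0025), with epidermis replicate 4 within the range of the stele arrays. ATG8H was not called (-0.25 ± 0.27, adjusted p = 0.51).

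Among stress regulators, 2 of 5 WRKY factors (40%) were higher in epidermis, against 13.7% of all genes with a symbol. WRKY22, a transcription factor of defense, gave 583, 438, 575 and 516 in epidermis and 153, 117 and 173 in stele (1.78 ± 0.21, adjusted p = 2.1e-06), and WRKY6, a factor of senescence and defense, gave 1538, 1171, 1299 and 1650 against 493, 252 and 326 (2.00 ± 0.25, adjusted p = 4.2e-06). The other 3 of 5 WRKY genes were not called, WRKY47 being the lowest at -0.17 ± 0.33 (adjusted p = 0.73). Of 8 plant U-box ubiquitin ligase genes 2 were higher (25%) and 1 lower (12.5%), against 13.7% and 21.7% of all genes with a symbol. PUB23, which dampens immune responses, gave 2218, 2029, 1887 and 3051 in epidermis and 1055, 684 and 944 in stele (1.35 ± 0.25, adjusted p = 0.00036). PUB24, of the same group, went the other way with 115.1, 97.9, 91.9 and 232 against 229.5, 426 and 276 (-1.20 ± 0.30, adjusted p = 0.0042), and epidermis replicate 4 just above the lowest stele array.

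Of the regulators of the iron deficiency response, 5 of 14 tested were lower (35.7%) and 2 higher (14.3%) in epidermis, with all roots on medium without iron. Over all genes tested, 18.1% were lower and 14.0% higher. IMA1 (AT1G47400), a small peptide that promotes iron uptake, gave 202, 269.5 and 259 in stele and 9.51, 13.7, 11.6 and 22.3 in epidermis (-3.39 ± 0.29, adjusted p = 7.9e-08). The 4 epidermis arrays, near the pseudocount and below the filter of 38.05, were far below the stele arrays, and the means in cortex, endodermis and columella, 46.9 ± 24.04, 51.5 ± 17.7 and 45.7 ± 10.2, lay between. Whether the probe set also detects close relatives of IMA1 was not tested. The bHLH factors of subgroup IVc, which switch on the early regulators, were lower as well: bHLH34 gave 234, 252 and 195 against 66.04, 70, 73.3 and 83.2 (-1.51 ± 0.20, adjusted p = 1.1e-05), bHLH115 gave 287, 462 and 342 against 170.1, 131, 191 and 234 (-0.96 ± 0.21), and bHLH104 gave 784, 853 and 704 against 471, 393, 461 and 407 (-0.84 ± 0.20). The remaining factor of that subgroup, ILR3, was not called (-0.35 ± 0.19, adjusted p = 0.17). BHLH101, of subgroup Ib, gave 63.6, 73.05 and 62.3 in stele and 27.6, 36.7, 29.4 and 15.97 in epidermis (-1.05 ± 0.24, adjusted p = 0.0019), and its cortex mean of 249 ± 46.3 was the highest of the 5 populations.

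None of the repressors of the response that were tested was called lower in epidermis. BTSL2, a ubiquitin ligase that limits iron uptake, gave 448, 392, 345 and 392 in epidermis and 97.7, 161 and 81.5 in stele (1.76 ± 0.23, adjusted p = 7.1e-06), without overlap. Its relative BTSL1 gave 159, 133, 183 and 226 against 112, 242 and 200 (-0.03 ± 0.26, adjusted p = 0.94), a difference near 0 whose sign turned without epidermis replicate 1 or 2 or stele replicate 2 or 3 (0.0 after rounding, 0.08, 0.19 and 0.06). NAI1, which is also bHLH20 of subgroup IVa and in that role promotes the breakdown of the uptake regulator FIT, was higher in epidermis as given above. The other subgroup IVa members BHLH25 and BHLH19 were not called (differences 0.32 ± 0.33 and 0.66 ± 0.37, adjusted p = 0.48 and 0.19), though BHLH19 was higher in epidermis without stele replicate 2 (1.07, adjusted p = 0.046). PYE, bHLH121 and AT3G07720, a Kelch-repeat gene that responds to iron deficiency, were not called (differences -0.33 ± 0.23, -0.23 ± 0.23 and -0.43 ± 0.26, adjusted p = 0.3, 0.46 and 0.23). AT3G07720 was highest in cortex, with a mean of 2774 ± 929 against 309.9 ± 71.6 in epidermis and 412 ± 40.8 in stele.

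Of 3 tested genes of iron uptake and coumarins, the phenolic compounds that roots release to mobilize iron, 2 were lower in epidermis and 0 higher. Over all genes tested, 18.1% were lower and 14.0% higher. F6'H1, which makes the first step of scopoletin synthesis, gave 190, 356 and 214 in stele and 89.3, 30.6, 40.2 and 165 in epidermis (-1.71 ± 0.48, adjusted p = 0.01, and 0.06 without stele replicate 2). Its cortex mean was 1084 ± 80. COSY, which closes the coumarin ring, gave 889, 859.9 and 867 against 304, 272, 226.9 and 317 (-1.61 ± 0.21, adjusted p = 7.2e-06), and its cortex and endodermis means were 1080 ± 116 and 1330 ± 157. BGLU42, a beta-glucosidase that frees coumarins for release, gave 587, 563, 483 and 354 against 509.5, 309.8 and 485 and was not called (adjusted p = 0.57). The zinc transport genes tested, ZIP9 and MTPA1, which is also called MTP2, were both higher in epidermis, against 14.0% of all genes tested. MTPA1 gave 133, 85.6, 126 and 4.19 in epidermis and 13.1, 2.01 and 11.5 in stele (1.97 ± 0.65, adjusted p = 0.025), and ZIP9 gave 179, 122, 158 and 46.05 against 23.1, 63.7 and 42.6 (1.29 ± 0.40, adjusted p = 0.018). Epidermis replicate 4 lay within the stele range in both. MTPA1 lost its call without epidermis replicate 1, 2 or 3 or stele replicate 2 (adjusted p = 0.087, 0.063, 0.084 and 0.11), and ZIP9 without epidermis replicate 1 or 3 or stele replicate 1 (0.066, 0.059 and 0.1). Genes of iron transport and storage, of other nutrient uptake and of the columella were not tested.

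Of the 69 tested genes of the plastid genome, 8 were lower (11.6%) and 1 higher (1.45%) in epidermis, with a median difference of -0.54. In the main fit, with epidermis replicate 4 included, both shares were below those of all genes tested, 18.1% and 14.0%. Rps15, for a ribosomal protein, gave 662, 527 and 881 in stele and 275, 92.9, 94.1 and 486 in epidermis (-1.79 ± 0.48, adjusted p = 0.0078), and petA, for cytochrome f, gave 3427, 2870 and 3335 against 868, 505, 1171 and 3405 (-1.47 ± 0.39, adjusted p = 0.0076). AtpB, for a subunit of the ATP synthase, gave 3402, 2798, 2838 and 2136 against 1656, 1134 and 2230 (0.77 ± 0.24, adjusted p = 0.019), and lost its call without epidermis replicate 1 or stele replicate 2 (adjusted p = 0.065 and 0.14). Epidermis replicate 4 was the highest epidermis array for rps15 and petA. The count of lower genes changed with the arrays used: it was 29 without epidermis replicate 4, 3 without replicate 1, 2 without replicate 2 or 3, 4 and 3 without stele replicate 1 and 3, and 2 in a fit of the 7 arrays alone, where petA had an adjusted p of 0.052. With array weights it was 32 and with a replicate block 28. Of all 16221 probe sets, 3584 were lower without epidermis replicate 4, 4065 with array weights and 3489 with the block. In these fits the share of plastid genes lower in epidermis was thus above that of all probe sets. Only the epidermis has a replicate 4, so the block, too, takes that array out of the contrast.

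The layers between the epidermis and the stele did not form a simple gradient. Of the 2292 probe sets higher in epidermis, the means of cortex and endodermis both lay between those of epidermis and stele in 710 (31%), and they did in 952 of the 3110 lower ones (30.6%). With array weights, under which more probe sets were called, the shares were 20.2% and 25.3%. A strict order from epidermis over cortex and endodermis to stele held for 359 (15.7%) and 733 (23.6%). Among the probe sets higher in epidermis, the highest of the 5 population means was that of the epidermis itself in 51.1%, of the columella in 34.4%, of the cortex in 11.1% and of the endodermis in 3.4%. Among those lower in epidermis it was that of the stele in 37%, of the endodermis in 32%, of the cortex in 17.7% and of the columella in 13.3%. IMA1, MGL, SAH7 and EXPA15 are examples with their maximum in stele. LCR68, RALFL32, HCT and CCR2 had theirs in endodermis. On the other side, sks16, scpl28 and ATMYC1 had their maximum in epidermis, and hemb2, GH9B6, PPDK, GH3.17 and CHX20 in columella.

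**Figure D5:**
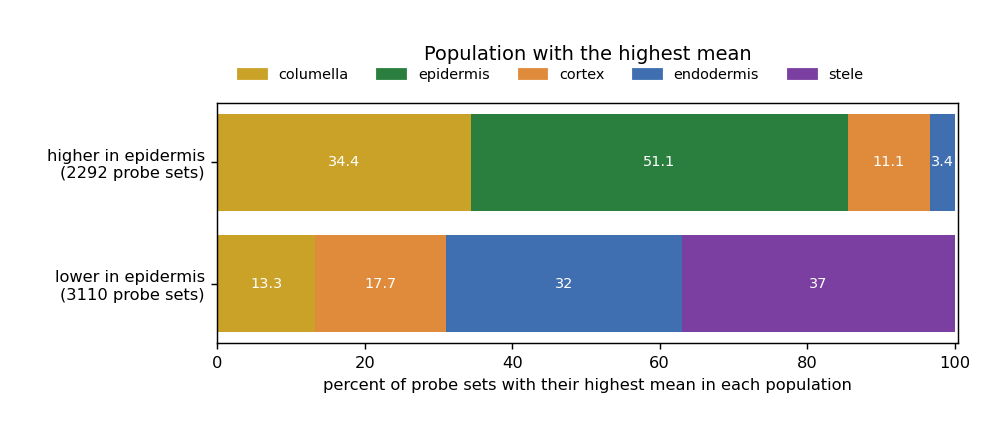
Percent of the probe sets higher (top bar) or lower (bottom bar) in epidermis than in stele whose highest mean on the log2 scale, out of the 5 populations, was in each population. Columella held the maximum of 34.4% of the higher and endodermis that of 32% of the lower probe sets.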

How the data were processed

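RNA of sorted root cells was measured on Affymetrix ATH1 arrays, 1 per sample, and the authors deposited a table of linear intensities for 22810 probe sets and 16 arrays, made with MAS5 per the submitters' processing notes; the version and the genome build are not given in the sources used here. After trimming 2% at each end, every array's mean intensity was 250, so total RNA per cell is not measured, and no detection calls were used. The arrays' number limits the precision. The 64 control probe sets were left out. Values were taken as log2(signal + 10.21), the 20th percentile, which understates differences of low genes. Probe sets were tested where at least 3 arrays reached 38.05, the 40th percentile (16221 probe sets). A gene high in 1 population only, such as IQD24 or IAA31 in stele, passed this filter through the arrays of that population alone. A linear model of the 5 populations over all 16 arrays was fitted with limma 3.58.1 in R 4.3.3 (eBayes with a trend), and the contrast was epidermis minus stele, positive where epidermis is higher; an adjusted p under 0.05 (Benjamini-Hochberg over all probe sets tested) is a call. The fit was tested on simulated data. Where a gene has several probe sets, the one with the highest mean was used.

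Of the probe sets, 13513 have 1 gene, 503 several and 8794 none in the annotation table, and 13436 matched RefSeq through the gene identifier; unlisted ones are unnamed here. Of 318 loci in 15 gene lists, 54 were named. Families were formed from the letters of gene symbols or of their RefSeq synonyms, and the plastid genes by their chromosome. The genes named are the 12 with the largest differences in each direction among called probe sets with a symbol and no overlap of arrays, each tested list member, and the highest and lowest of each family with at least 5 tested genes; other family examples were chosen after their values were seen. Members, lists and families were chosen with earlier results of these data known. The alternatives tried were 16: quantile normalization, 2 pseudocounts, 2 filters, no trend, array weights, only the 7 arrays, a replicate block, and leaving out each of the 7 arrays. No 2 arrays were identical. Plots used matplotlib 3.10.9 in Python 3.11.15.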

Additional observations from a re-analysis of the deposited data

Results flagged for a closer look

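In 13 of 138 named genes, 1 of the 4 epidermis arrays lay far from the other 3 by Dixon's criterion on the log2 scale, which chance meets in about 1 of 20 groups. Epidermis replicate 4 was that array in 8 genes. It was the highest in SBTI1.1 (24.47, others 1.33 to 3.09), SAH7 (251.2, others 38.6 to 52.3), GSO1 (110.7, others 43.8 to 49.8), ATG8E (295.3, others 48.6 to 67.5), WRKY47 (65.02, others 37.5 to 40.6), TBL39 (3694, others 3059 to 3113) and XTH19 (2523, others 1678 to 1776), and the lowest in AT3G07720 (203.8, others 330.0 to 358.0). Replicate 3 was the lowest in BHLH19 (80.31), SCN1 (874.3) and SGN1 (0.9617), and replicate 2 in scpl28 (363.8) and in PWD at AT4G24450 (6.809). Signals of a few units are below the pseudocount of 10.21.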

How the results depend on the processing

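Of 112 named genes that passed the threshold, 11 lost it under at least 1 of the 16 alternatives (F6'H1, ZIP9, MTPA1, SCN1, IQD19, RALFL34, atpB, XTH19, PYK10, petA and ALPHA-VPE), and none changed sign; 10 of the genes not called passed under at least 1. The count of probe sets higher in epidermis was 3866 with array weights, against 2292, and 1660 to 3340 on leaving out 1 array; the lower count was 4065 with array weights and 2723 to 3584 on leaving out 1 array, the highest of both without epidermis replicate 4. The cause was not tested. Under quantile normalization 49.3% of called probe sets were higher in epidermis, against 42.4%, and the median difference of all tested moved from 0.02 to 0.11. Cortex and endodermis both lay between in 582 to 821 higher and 898 to 1027 lower probe sets without 1 array (24.6% to 38.5% of the higher and 28.7% to 34.3% of the lower ones), and in 20.2% and 25.3% with array weights, against 31% and 30.6%. With a replicate block 3206 probe sets were higher and 3489 lower. Only the epidermis has a replicate 4, so this block amounts to leaving that array out and is no separate check. Deviations of same-numbered arrays from their population means correlated at 0.12, -0.26 and 0.18. Arrays of a population share its mean, so these values cannot tell whether the numbers pair the arrays. Differences of genes not called turned sign under quantile normalization for BTSL1 (0.03) and WRKY47 (0.08). On leaving out 1 array they ranged from -0.34 to 0.19 for BTSL1, -0.03 to 0.34 for BGLU42, -0.17 to 0.55 for EXPA18 and -0.36 to 0.0 for WRKY47.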
